A study of Mus musculus with 2 samples.

Results

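Dapl1 was examined in single cells of mouse pancreatic islets, by cell class and by diet. It was found by its symbol and its identifier (ENSMUSG00000026989) as 1 of the 31053 genes in the count matrices. Dapl1 had been selected on its level in these same libraries, where it was among the genes most raised in β-like cells of the high-fat diet group. Its levels by cell class and diet are therefore a description, with no test. Islets came from male C57/B6 mice aged 16 weeks. The wild-type (WT) group has no diet named in its labels and, per the study's methods, ate standard chow. The high-fat diet (HFD) group ate a diet with fat as 60% of kcal during 10 weeks, starting when 6 weeks old. Each group is 1 library made from the joined islets of 4 mice, so neither mice nor libraries can be separated from diet, and no p-value is given. Values are unique molecular identifiers (UMIs), tags that count captured transcripts once, and CPM is the number of Dapl1 UMIs scaled to 1000000 UMIs of the same cells.

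Dapl1 encodes death-associated protein-like 1, a small protein related to Dap. It was first described in differentiating epithelium, and in the retinal pigment epithelium it is known to restrain proliferation and to act with the transcription factor MITF. In dormant ribosomes of eggs, proteins of the DAP family sit in the tunnel through which new peptides leave, together with Habp4 or Serbp1, eEF2 and eIF5a. Naive and memory-type T cells also express Dapl1.

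The gene lies on the plus strand of chromosome 2, from 59484653 to 59505020 in build GRCm38. Its coding transcript Dapl1-201 has 4 exons and 321 coding bases. The last exon, from 59504711 to 59505020, holds the end of the coding sequence and a 3′ UTR of 196 bases from 59504825 to 59505020. Since the chemistry reads the 3′ end of transcripts, UMIs are drawn mostly from this end. A second transcript, Dapl1-202, is non-coding, shares that last exon and could not be told apart. No annotated gene overlaps Dapl1. The nearest protein-coding genes are Pkp4, 129445 bases away, and Tanc1, 107022 bases away.

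The 250 bases before the annotated start are shown as the region from which the transcript starts (RefSeq, GRCm38.p6, chr2:59484403-59484652, plus strand, read 5′ to 3′). Capitals mark the motifs found on either strand.
Dapl1 upstream region: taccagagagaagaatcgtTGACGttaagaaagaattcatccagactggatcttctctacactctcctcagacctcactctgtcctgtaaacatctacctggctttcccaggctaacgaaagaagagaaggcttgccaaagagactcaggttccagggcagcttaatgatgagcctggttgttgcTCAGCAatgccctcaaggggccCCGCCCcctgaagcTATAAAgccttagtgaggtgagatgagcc
The TATA box TATAAA stands 29 to 24 bases before the start and occurs in 12.4% of 32851 promoter windows of the same length. Further upstream are GGGCGG on the minus strand (a GC box, in 32.7% of windows), TGCTGA on the minus strand (the site read by MAF factors in part, 16.1%) and TGACG on the plus strand (the first part of a cAMP response element, 17.8%). The window does not hold TGACGTCA (1.55% of windows), TGANTCA (the AP-1 site, 6.75%), TGATGCAA (a C/EBP-ATF site, 0.792%), CATCTG (14.4%) or CCAAT (33.85%). A match is a run of letters and was not tested as a binding site.

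After filters, 2493 WT and 6673 HFD cells were kept of 3895 and 8951 barcodes, and 3 kept barcodes occurred in both libraries. The WT library was deeper per cell, with medians of 29517 UMIs in β-like cells against 11902 in HFD. Dapl1 had 5660 UMIs in kept WT cells and 27906 in kept HFD cells. Classes were named from marker genes, and all 9 β and all 8 α markers were present in their classes in both libraries. In the 13 WT T-like cells 3 of 7 T cell markers (Cd3d, Cd3e and Trac) were at 0, so the name is weak there. In the 166 HFD T-like cells all 7 were present.

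Dapl1 was captured at a clear level in 3 classes: β-like cells, α-like cells and, in HFD, T-like cells. In β-like cells it had 88.8 CPM in WT (95% Poisson interval 86.5 to 91.1, 5606 UMIs, 1925 cells) and 350.5 CPM in HFD (346 to 355, 27659 UMIs, 5859 cells). In α-like cells, which make glucagon, it had 55.3 CPM in WT (39.5 to 75.3, 40 UMIs, 57 cells) and 159 CPM in HFD (135 to 186, 158 UMIs, 198 cells). In T-like cells of HFD it had 210 CPM (163 to 267, 67 UMIs, 166 cells). In HFD, β-like cells thus had the highest level, and the intervals of T-like and α-like cells overlapped. Scaled to UMIs without the hormone and mitochondrial genes, β-like cells had 252 CPM in WT and 889 in HFD, and α-like cells 92.2 and 271 (231 to 317). HFD T-like cells had 225 (175 to 286) on that scale, below α-like cells, again with overlapping intervals. Intervals cover counting error only, not the spread between mice.

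The other islet hormone classes had few Dapl1 UMIs or none. In δ-like cells, which make somatostatin, it had 4 UMIs in each library, 9.26 CPM in WT (2.52 to 23.7, 51 cells) and 10.9 CPM in HFD (2.96 to 27.8, 115 cells). In PP-like cells, which make pancreatic polypeptide, it had 0 UMIs in 16 WT and 33 HFD cells. By a floor of 3 counts this allows shares of cells with a UMI of up to 18.8% and 9.09%. The exact binomial upper bounds were 20.6% and 10.6%. β-like cells of HFD had 32.2 times the level of δ-like cells (12.6 to 118), and α-like cells 14.6 times (5.59 to 54.3). In WT these ratios were 9.59 (3.74 to 35.2) and 5.97 (2.16 to 23.0).

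Outside the hormone classes the counts were small. Endothelial-like cells had 2 UMIs in WT (1.41 CPM) and 8 in HFD (13.6 CPM). Ductal-like cells had 7 UMIs in WT (7.12 CPM) and 6 in HFD (27.5 CPM). Fibroblast-like, macrophage-like, B-like and acinar-like cells had 0 UMIs in WT and 1 UMI each in HFD, and Schwann-like cells had 0 in both. The order of these classes is not resolved, since their intervals overlap.

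**Figure D1:**
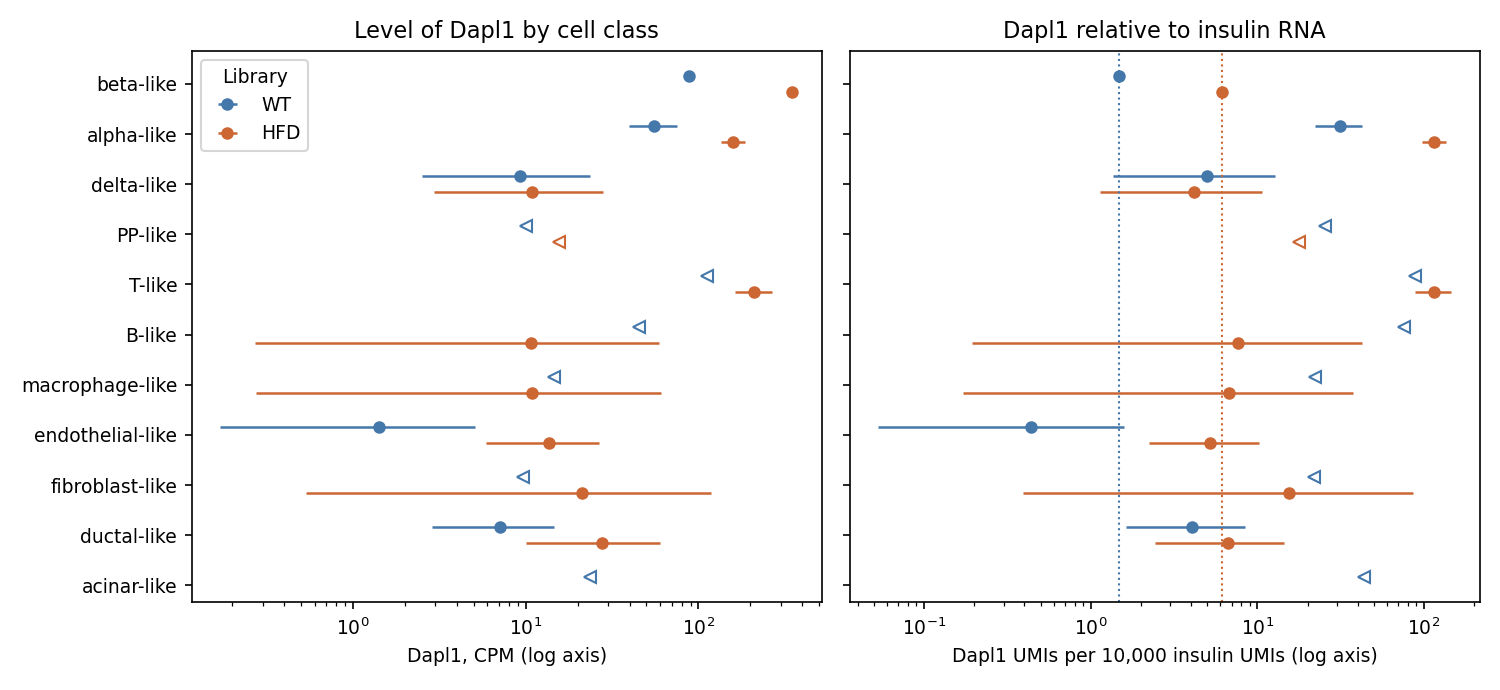
Left, level of Dapl1 in CPM (log axis) in each cell class with at least 10 cells in the library; right, Dapl1 UMIs per 10,000 insulin (Ins1 and Ins2) UMIs of the same cells (log axis). Points are WT (blue) and HFD (orange) with 95% Poisson intervals, open triangles are the floor of 3 counts where no UMI was found, and dotted lines are the β-like ratio of each library. In HFD, α-like and T-like cells lie far to the right of the dotted line, and δ-like, endothelial-like and ductal-like cells lie on it within their intervals.

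Free RNA can enter any droplet, and RNA released by β cells was taken to bring Dapl1 and insulin in the ratio at which β-like cells hold them. That ratio was 1.48 Dapl1 UMIs per 10,000 insulin UMIs in WT and 6.17 in HFD. Barcodes with under 500 genes, which were left out, had 0.688 in WT (0.297 to 1.36) and 8.38 in HFD (6.28 to 11.0). Neither interval held the β-like ratio, so it is an approximate measure. All classes other than β-like, α-like, T-like and unnamed held 13 Dapl1 UMIs in WT and 22 in HFD, where their insulin UMIs at the β-like ratio would bring 11.2 and 24.4. Their ratios were 1.71 per 10,000 in WT (0.911 to 2.93) and 5.56 in HFD (3.48 to 8.41), intervals that hold the β-like ratio. δ-like cells had 4.97 per 10,000 in WT (1.36 to 12.7) and 4.16 in HFD (1.13 to 10.6), which hold it in HFD and in WT alike. Ductal-like cells of WT, with 4.08 (1.64 to 8.40) from 7 UMIs, lay above it, and the interval of those of HFD (6.62, 2.43 to 14.4) held it. α-like cells had 31.2 per 10,000 in WT (22.3 to 42.5) and 115 in HFD (97.9 to 134.5), which is 21.2 and 18.7 times the β-like ratio. T-like cells of HFD had 114 (88.6 to 145), or 18.5 times.

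Shares of cells with a Dapl1 UMI depend on depth and were therefore also taken with each cell thinned to 2000 UMIs. Of β-like cells, 14.1% in WT (12.6 to 15.7, exact binomial) and 36.8% in HFD (35.5 to 38.0) then had a UMI, against 71.8% and 76.7% before thinning. Thinned α-like cells had a UMI in 7.02% in WT (4 of 57 cells) and 21.1% in HFD (41 of 194). The 43 HFD T-like cells deep enough had one in 27.9% (15.3 to 43.7), with 123 shallower cells left out. In all classes other than β-like, α-like, T-like and unnamed, with medians of 6272 and 2855 UMIs per cell, the thinned shares were 0.503% in WT and 1.75% in HFD.

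In β-like cells HFD had 3.95 times the WT level of Dapl1 (3.84 to 4.06, log2 ratio 1.98). Of 1169 genes with a mean of at least 50 CPM, 0.684% were at least 2-fold higher in HFD. The median log2 ratio of the 1169 genes was 0.12. Dapl1 had rank 2 after Try4, an acinar protease. Prss2 and Ctrb1, also acinar enzymes, came next, and the part of such transcripts in the Dapl1 ratio was not tested. Scaled to UMIs of genes other than the hormone and mitochondrial genes, the ratio was 3.53 (3.43 to 3.63). In α-like cells HFD had 2.87 times the WT level (2.02 to 4.17, log2 ratio 1.52), where 0.671% of 1938 genes were at least 2-fold higher and Dapl1 had rank 9. The genes with the highest α-like ratios were acinar enzymes (Try5, Clps, Try4, Prss2), whose part in the Dapl1 ratio was not tested. In δ-like cells the ratio of 1.17 had an interval from 0.219 to 6.31 and could not be resolved at 4 UMIs a library, and 1.34% of 2462 genes were at least 2-fold higher. T-like cells had 0 UMIs in WT, where 13 cells allow up to 112 CPM, by a floor of 3 counts over the group. No fold is given, the class being weakly named in WT.

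The diets were also compared in β-like cells of like depth. Deeper β-like cells had a higher Dapl1 CPM in both libraries. In WT it ran from 45.3 CPM in cells under 5000 UMIs (102 cells) and 34.9 CPM at 5000 to 10000 (58 cells) to 49.2, 85.8 and 98.4 CPM in the 3 deeper bins. In HFD it ran from 169 CPM through 204, 333 and 474 to 772 CPM, the last in 7 cells of at least 40000 UMIs. HFD lay above WT in all 5 bins. The ratios were 3.72 (2.15 to 6.98), 5.84 (3.54 to 10.5), 6.77 (5.97 to 7.70), 5.52 (5.27 to 5.78) and 7.84 (6.81 to 8.99). The pooled ratio of 3.95 lay above the first of these and below the other 4.

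**Figure D2:**
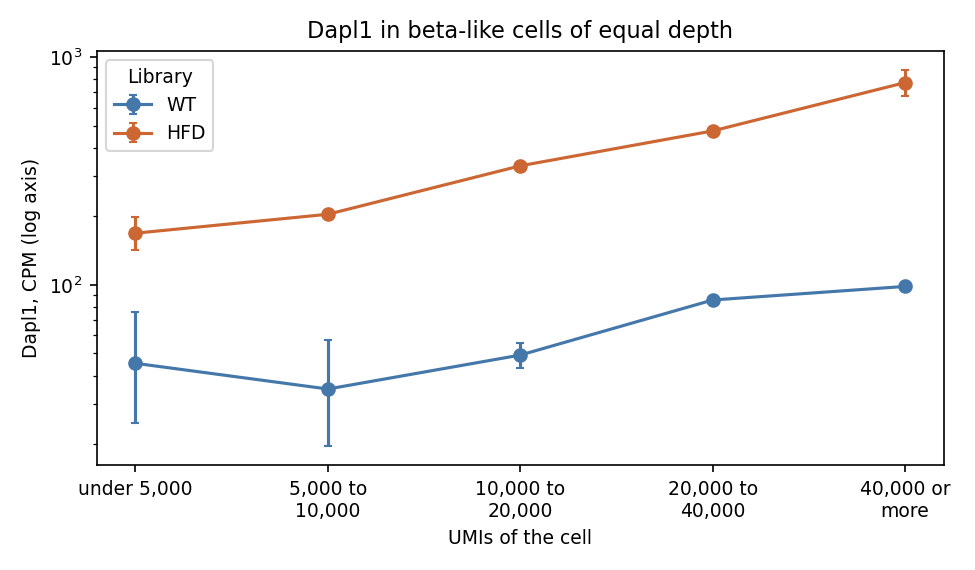
Level of Dapl1 in CPM (log axis) in β-like cells grouped by the UMIs of the cell, for WT (blue) and HFD (orange), with 95% Poisson intervals. HFD lies above WT in each of the 5 groups, between 3.72 and 7.84 times.

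Among α-like cells the depth comparison rested on few UMIs. At 5000 to 10000 UMIs per cell, WT had 21.6 CPM (4 UMIs, 23 cells) and HFD 151 CPM (67 UMIs, 68 cells), a ratio of 6.97 (2.60 to 26.3). At 10000 to 20000 they had 81.5 CPM (26 UMIs) and 153 CPM (16 UMIs), and the interval of that ratio, 0.941 to 3.64, held 1.

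Dapl1 varied widely between single β-like cells. With cells thinned to 10000 UMIs, the 1765 WT cells that remained held 0.82 ± 1.16 Dapl1 UMIs (mean ± SD over cells), and the 3730 HFD cells held 3.68 ± 4.50. Among WT cells 52.5% had none, the median was 0, the 90th percentile 2 and the highest value 9. Among HFD cells 18.1% had none, the median was 2, the 90th percentile 9, the 99th percentile 22 and the highest value 54. No WT cell and 324 HFD cells (8.69%) held 10 or more. The highest cell in each library without thinning had 36 UMIs in WT and 118 in HFD.

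**Figure D3:**
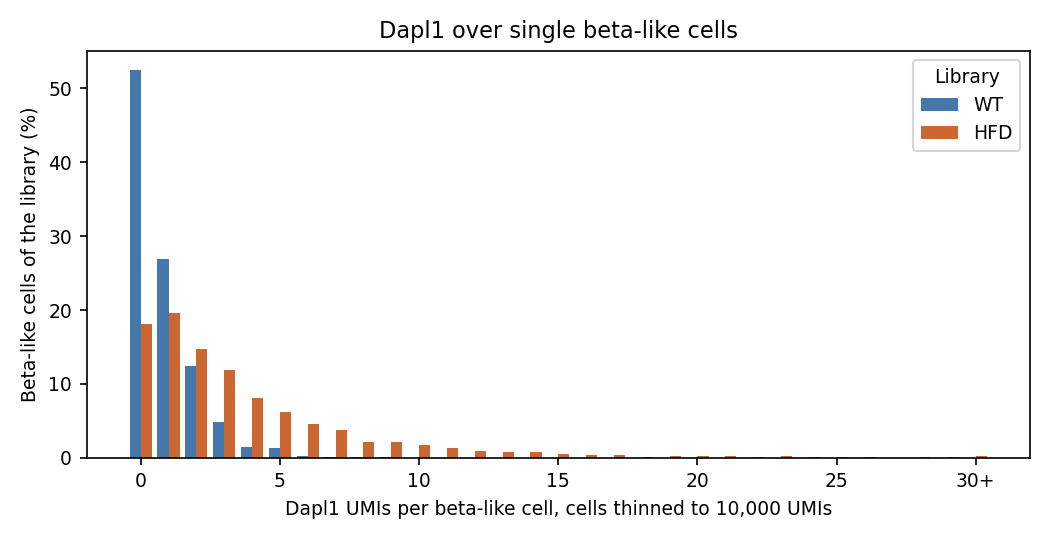
Share of β-like cells of each library (%) by their number of Dapl1 UMIs after thinning to 10,000 UMIs per cell, for WT (blue, 1765 cells) and HFD (orange, 3730 cells); the last bar holds cells with 30 or more. WT cells are mostly at 0 or 1, and HFD cells run on past 10.

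Sampling alone would leave fewer cells without the transcript. At a mean of 3.68 UMIs a Poisson count leaves 2.53% of cells at 0, against the 18.1% seen in HFD, and in WT it leaves 43.9% against 52.5%. The excess spread, the variance beyond Poisson divided by the squared mean, was 0.77 in WT (0.59 to 0.94, jackknife over cells) and 1.23 in HFD (1.08 to 1.37). The order of the libraries turned with barcodes of at most 15000 UMIs, where it was 1.66 in WT (80 cells) and 1.40 in HFD (1789 cells). Of 110 genes with a mean within 1.5 times that of Dapl1 in HFD β-like cells, none had a larger excess spread, and their median was 0.051. In WT 10 of 661 such genes were above it and the median was 0.082. The highest among these in WT included Ctrb1, Rbp4 and Atf3, and in HFD Fosb, Krt8 and Krt18 came next after Dapl1. In both libraries the tenth of β-like cells with most Dapl1 held a large share of its UMIs, 41.5% in WT and 38.3% in HFD. Counting noise alone raises this share, more so at a low mean. With means of 0.82 UMIs in WT and 3.68 in HFD, these shares cannot be compared between libraries.

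Clustering β-like cells without Dapl1, the hormone genes and Cck gave 7 subclusters, of which 6 had at least 100 cells. Most held cells largely of 1 library. In HFD the level ran from 107 CPM (165 cells) in a subcluster led by Hbb-bs, Ifit1 and Mt2, through 145 CPM (388 cells) where Fos, Rasd1 and Dusp1 led, to 570 CPM (561 to 580, 1345 cells) where Aldh1a3, Pappa2 and Gc led. Aldh1a3 encodes a retinaldehyde dehydrogenase that marks dedifferentiating β cells, and Gc the vitamin D binding protein. The subcluster led by Malat1 and acinar transcripts had 336 CPM (1998 cells), and that led by Cd74 and Nupr1 had 199 CPM (1606 cells). In WT, 1329 of 1925 cells fell in the Fos subcluster, with 94.9 CPM. The 17 WT cells in the Aldh1a3 subcluster had 136 CPM (99.2 to 182). Subclusters accounted for 12.2% of the variance of thinned Dapl1 UMIs in HFD and 1.88% in WT, so most of the spread, counting noise included, lay between cells of the same subcluster.

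**Figure D4:**
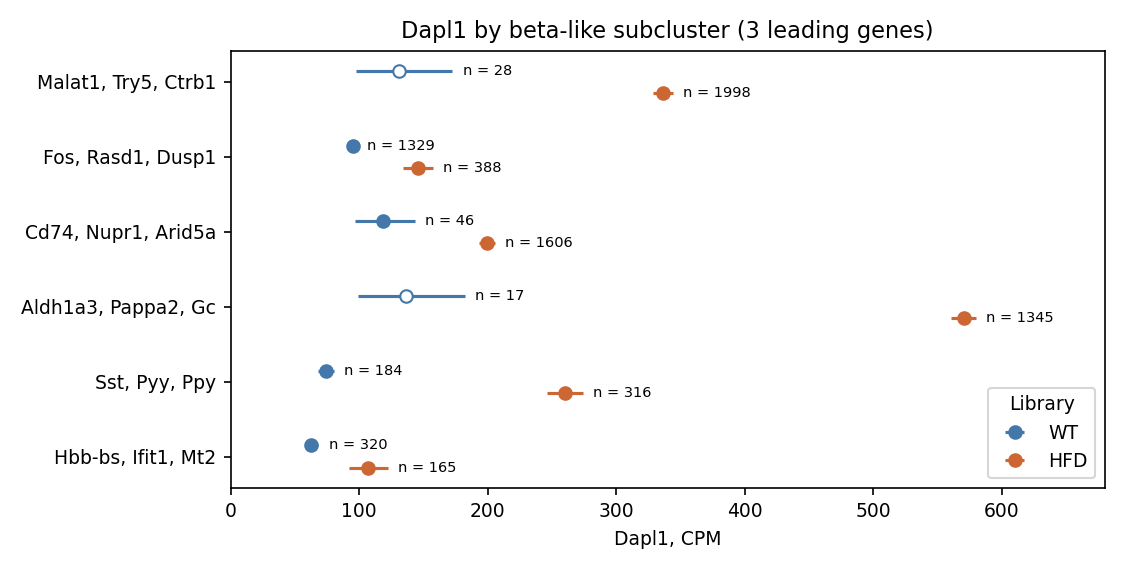
Level of Dapl1 in CPM in the 6 β-like subclusters of at least 100 cells, each named by 3 leading genes, for WT (blue) and HFD (orange), with 95% Poisson intervals and the number of cells; open points have under 30 cells. HFD lies to the right of WT in each of the 6, with the widest gap in CPM in the subcluster led by Aldh1a3.

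In the 4 subclusters with at least 30 cells of each library the ratio of HFD to WT was 1.53 (1.40 to 1.67) for Fos, 1.68 (1.39 to 2.06) for Cd74, 1.70 (1.44 to 2.0) for Hbb-bs and 3.52 (3.18 to 3.90) for the one led by Sst, Pyy and Ppy. All 4 lay below the pooled ratio of 3.95. The subclusters led by Malat1 and by Aldh1a3, which held 1998 and 1345 of the HFD cells, had 28 and 17 WT cells, and no ratio was taken there. Their levels were 131 CPM in WT (97.6 to 172) and 336 CPM in HFD for Malat1, and 136 and 570 CPM for Aldh1a3.

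Correlations between Dapl1 and other transcripts were taken over the β-like cells of each library. Cells were thinned to 4000 UMIs with Ins1 and Ins2 set aside, which left 1773 WT and 4086 HFD cells and means of 0.86 and 3.37 Dapl1 UMIs. Pearson correlations of square-root counts were taken over 2865 genes with a mean of at least 0.2 UMI in both libraries. The cells of a library share its islets, handling and sequencing, so the correlations are a description. Their size cannot be compared between libraries, since Dapl1 has fewer UMIs per cell in WT.

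The 10 genes with the highest r in HFD were ranked there and then read in WT. Scg2, a granule protein, had r = 0.41 in HFD and 0.10 in WT. Iapp, the amyloid peptide released with insulin, had 0.41 and 0.23. Ttr, transthyretin, had 0.40 and 0.19. The other 7 are proteins of the early secretory pathway and granule: Ssr4, of the translocon (0.35 and 0.21), Manf, a factor induced by stress in the endoplasmic reticulum (ER) (0.32 and 0.26), Fkbp11, a prolyl isomerase (0.32 and 0.17), Sdf2l1, a cofactor of the chaperone BiP (0.30 and 0.19), Nucb2, which yields nesfatin (0.29 and 0.17), Sec11c, of the signal peptidase (0.29 and 0.17), and Tmed3, a cargo receptor (0.28 and 0.12). Of these 10, 9 had r of at least 0.1 in WT, and Scg2 had 0.099. Manf had the highest r of all genes tested in WT.

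The 10 genes with the lowest r in HFD were led by metallothioneins, which bind zinc and copper. Mt1 had r = -0.34 in HFD and -0.22 in WT, and Mt2 had -0.28 and -0.22, the lowest pair of values in WT as well. Ftl1, the ferritin light chain, had -0.30 and -0.14, and Camk2n1, an inhibitor of CaM kinase II, had -0.25 and -0.13. The mitochondrial transcripts mt-Co2, mt-Nd2 and mt-Nd4 had -0.26, -0.24 and -0.23 in HFD and -0.15, -0.10 and -0.12 in WT. Fosb, Jund and Gadd45g, which respond early to stimuli, had -0.24, -0.23 and -0.23 in HFD but 0.02, -0.07 and -0.01 in WT. Of these 10, 7 had r of -0.1 or lower in WT.

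**Figure D5:**
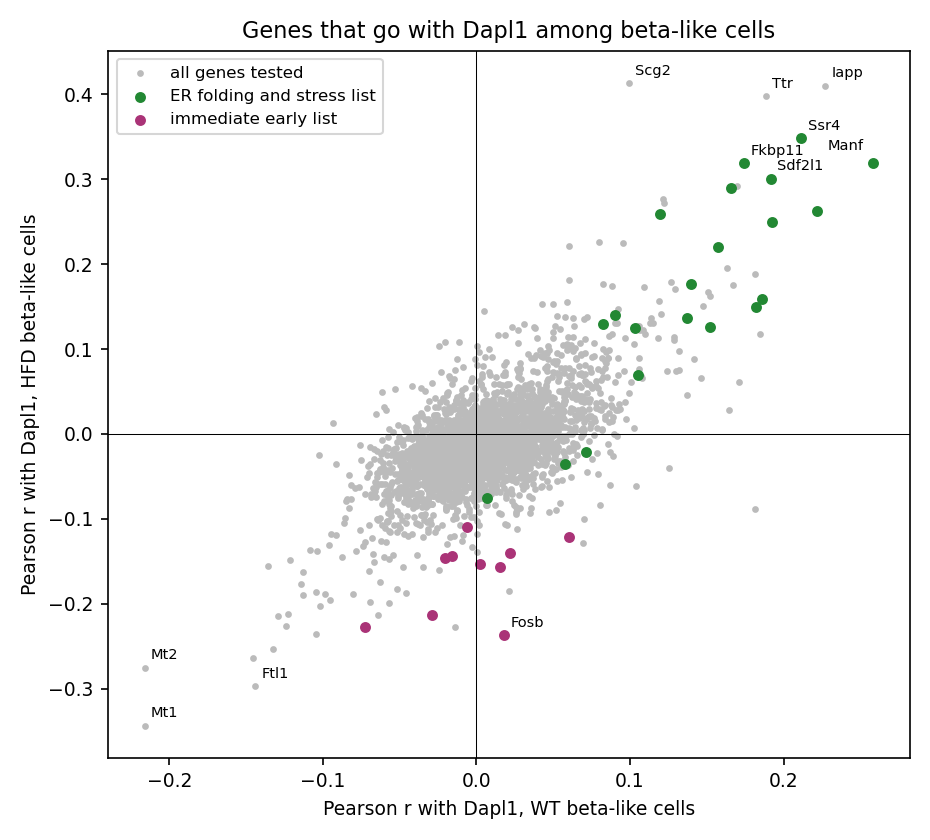
Each point is a gene, with its Pearson correlation with Dapl1 over 1773 WT β-like cells (horizontal) and 4086 HFD β-like cells (vertical). Genes of the ER folding list (green) lie mostly in the upper right, metallothioneins Mt1 and Mt2 at the lower left, and immediate early genes (purple) lie below 0 in HFD and near 0 in WT.

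Of 21 tested members of the ER folding and stress list, 15 had r of at least 0.1 in both libraries, where 1.57% of all 2865 genes did (45 genes). The list was chosen with earlier results of these data known, so this is a description. It holds Ssr4, Manf, Fkbp11, Sdf2l1 and Sec11c, already named above. The median r of the list was 0.15 in WT and 0.16 in HFD, against 0.00 and -0.02 over all genes. The 15 included Hspa5, which encodes the chaperone BiP (0.19 in WT and 0.25 in HFD), the disulfide isomerase Pdia6 (0.22 and 0.26), the co-chaperone Dnajc3 (0.12 and 0.26) and calreticulin Calr (0.18 and 0.15). The regulators of the stress response had values near 0: Atf4 (0.07 and -0.02), Ddit3 (0.06 and -0.04) and Xbp1 (0.01 and -0.08). Of 13 granule and hormone processing genes, 4 passed in both (Iapp, Scg3, Pcsk1 and Cpe), with medians of 0.06 in WT and 0.12 in HFD. In cells with no thinned Dapl1 UMI, the 22 genes of the ER list summed to 63.2 ± 20.5 UMIs in HFD (869 cells). In HFD cells with 10 or more Dapl1 UMIs the sum was 94.2 ± 23.2 (325 cells). In WT the sum was 52.5 ± 18.8 in cells with none (899 cells) and 76.6 ± 21.2 in cells with 3 to 9 (154 cells). The spread within each group was wide, and the groups overlapped.

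Maturation genes did not go with Dapl1 in both libraries. None of 13, among them Mafa (0.07 in WT and -0.10 in HFD), the glucose transporter Slc2a2 (0.07 and -0.13) and Ucn3 (0.02 and -0.03), passed 0.1 with the same sign in both. In HFD alone, all but Ero1lb (0.06) and G6pc2 (0.05) had r below 0. The lowest there were Trpm5 (0.02 in WT and -0.18 in HFD), Slc2a2 and Slc30a8 (0.02 and -0.11). The median r of the list was 0.02 in WT and -0.07 in HFD, against 0.00 and -0.02 over all genes. Of the 9 genes of the immaturity list, 2 were high enough to be tested, and both are also in the δ marker list. The peptide hormone Pyy passed at -0.10 and -0.14, where 0.628% of all genes were at -0.1 or lower in both. Rbp4 had -0.096 and -0.13. Aldh1a3, a member too low to be tested, went the other way in HFD. It had 0.067 ± 0.315 UMIs in cells with no Dapl1 UMI and 0.255 ± 0.566 in cells with 10 or more. All 10 immediate early genes had r of -0.1 or lower in HFD, where 3.77% of all genes did, and none passed in WT (median -0.15 in HFD and -0.00 in WT). Whether the libraries differ in this was not tested. With counts centred on the mean of each β-like subcluster, the median of these genes was -0.07 in HFD and -0.04 in WT. The sum of the 10 in HFD was 24.7 ± 14.3 UMIs in cells with no Dapl1 UMI and 14.0 ± 7.02 in cells with 10 or more.

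Insulin transcripts were somewhat more abundant in cells with more Dapl1. The insulin share of a cell's UMIs was 57.0% ± 8.88 in WT cells with no thinned Dapl1 UMI and 63.3% ± 4.50 in those with 3 to 9. In HFD it was 54.3% ± 7.30 with none and 57.8% ± 3.48 with 10 or more. With thinning over all genes, Ins1 had r = 0.25 in WT and 0.15 in HFD, and Ins2 had 0.13 and 0.01. The mitochondrial share of a cell's UMIs had r = -0.20 in WT and -0.27 in HFD, and the log of UMIs per cell had 0.21 and 0.20. The part of cell quality in the correlations was not tested by these values. With log UMIs per cell regressed out, the same 15 of 21 ER list members had r of at least 0.1 in both libraries, and with each subcluster centred 12 of those 15 did.

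Other divisions of β-like cells were set beside the same thinned counts. HFD cells with an Aldh1a3 UMI held 4.81 ± 4.79 Dapl1 UMIs (422 cells), against 3.53 ± 4.44 without (3308 cells). In WT 11 cells had Aldh1a3 and held 0.82 ± 0.98, against 0.82 ± 1.16 without. HFD cells with Ddit3 or Trib3, effectors of the integrated stress response, held 3.66 ± 4.50 (2849 cells) against 3.74 ± 4.52 without (881 cells). The 24 HFD cells with Cck held 3.67 ± 4.28 against 3.68 ± 4.50. The 89 HFD cells with Gcg, Sst or Ppy above 2% of UMIs held 2.11 ± 3.04, against 3.72 ± 4.52 in the rest, and in WT 84 such cells held 0.58 ± 0.89 against 0.84 ± 1.17. All these ranges overlapped widely, and cells are not replicates of a diet.

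Dapl1 was also uneven among α-like cells. In WT 45 of 57 cells had none and the other 12 held 1 to 7 UMIs each. In HFD 128 of 198 had none, 29 had 1 and 41 had 2 to 6. Over the 5 α-like clusters the HFD level ran from 56.2 CPM (21 cells) to 268 CPM (28 cells), and in WT from 19.8 CPM (28 cells) through 45.6 (7 cells) and 79.3 CPM (17 cells) to 205 CPM (102 to 367, 11 UMIs in 4 cells), with none in the 1 WT cell of the last cluster. With cells of at most 1% insulin UMIs alone, α-like cells had 48.6 CPM in WT (33.4 to 68.2, 55 cells) and 142 CPM in HFD (114 to 176, 105 cells). Cells above 1% had 158 CPM in WT (63.5 to 325, 7 UMIs, 2 cells) and 183 CPM in HFD (144 to 230, 93 cells). Gcg made up 30.9% of UMIs in HFD α-like cells with a Dapl1 UMI and 29.3% in those without, and in WT 31.5% and 26.1%. With UMIs pooled over cells, insulin was also higher in α-like cells with a Dapl1 UMI. Ins2 made up 4.26% of UMIs in those of WT against 0.317% in those without, and 1.58% against 0.736% in HFD. Ins1 made up 1.63% against 0.113% in WT and 0.330% against 0.273% in HFD. The WT shares rest on few cells. In the 2 WT cells above 1% insulin, of which 50% held Dapl1, Ins2 made up 16.1% of UMIs. In the 55 at or below 1% it made up 0.318%. Shares by Dapl1 without those 2 cells were not taken.

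In T-like cells of HFD, 39 of 166 held Dapl1, 30 of them 1 UMI, and a single cell held 10 of the 67. The 39 cells had an insulin share of 1.92% against 1.80% in the other 127, and medians of 1701 and 1532 UMIs. Cd8b1, a chain of the CD8 coreceptor, was seen in 59.0% of cells with Dapl1 and 35.4% of those without, at 313 CPM (209 to 449) and 296 CPM (229 to 376). Cd4 had 0 UMIs in the 39 and 6 UMIs in the 127. Ccl5, a chemokine of effector and memory T cells, had 528 CPM (391 to 699) with Dapl1 and 1404 CPM (1254 to 1567) without. Lef1, a factor of naive T cells, had 226 CPM (140 to 346) and 150 CPM (104 to 210), and Ccr7, a homing receptor of naive and central memory T cells, had 841 CPM (665 to 1050) and 623 CPM (524 to 734). Of the T cell state genes given here, Ccl5 alone had intervals that did not overlap. Intervals also overlapped for Cd8a, Cd4, Tcf7, Il7r and Foxp3.

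The paralog Dap was spread more evenly. It had 134 CPM in WT and 143 CPM in HFD β-like cells, 180 and 131 in α-like cells, 199 and 171 in δ-like cells, and 75.2 in HFD T-like cells. Habp4, a dormancy factor of ribosomes, had 10.1 and 10.9 CPM in β-like cells. Of the 4 tested genes of this list none had r of 0.1 in either direction with Dapl1 (Dap 0.07 in WT and 0.01 in HFD, Eif5a 0.05 and 0.07). Mitf had 3.28 and 4.51 CPM in β-like cells. The neighbours of Dapl1 on chromosome 2 did not share its difference between diets: Pkp4, a plakophilin, had 46.0 and 39.0 CPM in β-like cells (log2 ratio -0.24, -0.31 to -0.17), and Tanc1 had 6.10 and 6.44 CPM (0.08, -0.12 to 0.27).

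Over 16 points, each a cell class with at least 30 cells in a library, the levels most like those of Dapl1 were sought among 6362 genes by Pearson correlation of log2(CPM + 10). Spc25, a kinetochore gene, had r = 0.91, with 69.6 CPM in WT and 98.7 CPM in HFD β-like cells, 49.8 and 44.2 in α-like cells and 34.5 in HFD T-like cells. Skap1, a T cell adaptor, had 0.80, with 266 CPM in HFD T-like cells and 39.4 CPM in β-like cells of each library. Pithd1 followed with 0.74, Nell1 with 0.73 and Ddc, which encodes aromatic amino acid decarboxylase, with 0.67. The points share 2 libraries, and most classes give them few UMIs.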

How the data were processed

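Dapl1, the gene lists and the comparisons were chosen with earlier results of these data known. The files hold unnormalized UMI counts for every gene in each barcode, which the authors made with Cell Ranger (v3.0.2) and an mm10 index, per the submitters' processing notes. The deposited counts still held barcodes that the study's later filters remove. Barcodes with at least 500 genes and at most 20% mitochondrial UMIs were kept, with no UMI maximum. The barcodes with the highest Scrublet scores (scanpy v1.11.5) were left out, 0.8% for each 1000 barcodes, or 121 WT and 641 HFD barcodes. The automatic Scrublet threshold called 1 and 0 and was not used.

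Cells of both libraries were clustered together by Leiden (igraph v0.11.9, resolution 1) on 2000 variable genes of square-root scaled counts, without Dapl1, Ins1, Ins2, Gcg, Sst, Ppy and Cck. Clusters were named from fixed marker lists, and the scoring was set after clusters had been seen, in 3 versions. The 76 unnamed WT cells had low UMI counts. Library totals were 73843674 UMIs in WT and 94375138 in HFD. UMIs were summed per class and library. Sums have exact Poisson intervals, ratios exact conditional intervals and shares Clopper-Pearson intervals, all at 95% and for counting error only. A count of 0 was given a floor of 3 counts. With 1 library a group no test was possible. Thinning drew UMIs of each cell without replacement, with a fixed seed. The correlation, spread and interval code was tested on simulated data. Genes were named by rule: the 10 highest and 10 lowest correlations in HFD read in WT, list members past 0.1 in both libraries, the 5 genes of most like pattern, chromosome neighbours and the hormone genes. Alternatives included TMM factors from edgeR (v4.0.16). 1 member of the T cell state list is not reported here.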

Additional observations from a re-analysis of the deposited data

Results flagged for a closer look

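Dapl1 was also read in the barcodes left out of the cell classes, and in HFD these stood above the same barcodes of WT. HFD barcodes with over 20% mitochondrial UMIs had 49.0 CPM (36.0 to 65.1, 1123 barcodes), against 5.47 CPM in WT (2.50 to 10.4, 1009 barcodes). HFD barcodes with under 500 genes had 82.8 CPM (62.0 to 108, 531 barcodes), against 21.7 CPM in WT (9.35 to 42.7, 286 barcodes). Relative to insulin these had 5.59 (4.11 to 7.44) and 8.38 (6.28 to 11.0) Dapl1 UMIs per 10,000 insulin UMIs in HFD. In WT they had 1.08 (0.493 to 2.05) and 0.688 (0.297 to 1.36). HFD barcodes left out by their Scrublet score had 338 CPM (327 to 349, 624 barcodes), against 80.1 CPM in WT (71.5 to 89.4, 107 barcodes).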

How the results depend on the processing

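No paired analysis was possible because each group held 1 library. Under 10 alternatives the log2 ratio of HFD to WT in β-like cells stayed above 0, from 1.82 to 2.42, and 6 lay within its counting interval. It was 2.42 with at most 15000 UMIs per barcode, 2.03 with at least 1000 genes, 1.82 scaled without hormone and mitochondrial genes and 2.37 in cells of 10000 to 30000 UMIs. With at least 1000 genes the acinar-named cluster also took in cells with β genes. The α-like ratio stayed within its interval under all 10 (1.13 to 1.70). The δ-like ratio changed sign under 3 of 9 (-0.49 to 0.87), at 2 to 8 UMIs a library, and cells of 10000 to 30000 UMIs gave no value. The excess spread was 1.66 in WT and 1.40 in HFD with at most 15000 UMIs, and 1.44 in HFD with cells thinned to 5000 UMIs. The other 8 WT and 7 HFD values lay within the jackknife interval. Of the 20 genes named by their correlation in HFD, 12 to 17 had r of at least 0.1 with the same sign in WT under 12 alternatives, 16 in the values above, and 15 to 20 genes were named again. Centring on subclusters and regressing out log UMIs were chosen after the data were seen. By depth and a floor of 3 counts, 0 UMIs allowed up to 441 CPM in HFD and 98.1 CPM in WT Schwann-like cells. The same floor allowed up to 112 CPM in WT T-like cells and 15.6 CPM in HFD PP-like cells.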

Other observations

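Other lists read beside Dapl1 over β-like cells had correlations near those of all genes. None of 16 respiratory chain genes had r of at least 0.1 with the same sign in both libraries (median 0.03 in WT and 0.01 in HFD). The same held for 3 antigen presentation genes (median -0.02 and 0.02), 3 cell cycle genes (0.02 and 0.01) and 2 genes of the serotonin and prolactin list, where the prolactin receptor Prlr had 0.13 in WT and -0.04 in HFD. Of the epithelial list, Mitf, E2f1, Krt5 and Krt14 were all too low to be tested.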
